A study of Mus musculus with 4 samples.

Results

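The genes described here are those of integrins, laminins and their basement membrane partners in 2 populations of hair cell (HC) progenitors of the neonatal mouse cochlea. They were chosen by symbol, as every integrin alpha or beta symbol (*Itga* or *Itgb*), every laminin chain (*Lama*, *Lamb* or *Lamc*) and the genes *Nid1*, *Nid2*, *Hspg2*, *Agrn*, *Dag1*, *Fn1*, *Vtn*, *Tnc* and *Ilk*, leaving out the integrin-binding proteins of the *Itgb1bp* and *Itgb3bp* type. The rule found 48 of the 23997 genes in the table. Of the 48, 28 carry integrin symbols, 11 are laminin chains and 9 are other genes. Lgr5+ progenitors were EGFP+ cells sorted by FACS from cochleae of Lgr5-EGFP-IRES-CreERT2 mice, and Lgr6+ progenitors were the EGFP+ cells of Lgr6-EGFP-IRES-CreERT2 mice, all of the C57BL/6 strain. For RNA-Seq the cells came from cochleae at postnatal day 3. Both kinds of mice thus carry a reporter allele, each at a different gene, and the sort took whichever cells were bright for it. The labels list 2 samples per population. According to the methods, replicates are fractions of 1 RNA extraction per population, but their number there differs from that in the labels, and which of them the values combine is not known.

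A basement membrane is the thin sheet of matrix on which an epithelium rests, and in the cochlea it runs under the supporting cells (SCs) and along nerves and capillaries. Laminins are trimers of an alpha, a beta and a gamma chain that form its network, which nidogens and the heparan sulfate proteoglycans perlecan and agrin tie to type IV collagen. Cells hold on to it through integrins, which are pairs of an alpha and a beta subunit, and through dystroglycan. Several integrins also bind fibronectin, vitronectin and tenascin-C or activate latent TGF-beta.

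The measurement is FPKM, a fragment count normalised for transcript length and for the mapped fragments of a library, with the replicates merged into 1 value per gene and population. No spread between replicates can be had from it, so no difference described here has a replicate check or a *p*-value. Each log2 change given here subtracts the Lgr5+ from the Lgr6+ value of log2(FPKM + 1), which understates the change of genes at low FPKM. A gene was kept where either population had FPKM 1 or more, and a kept gene is called higher where the populations were 1.5-fold or more apart on this scale. Over the 13436 kept genes the median log2 change was 0.03. Low FPKM values lie on steps that are 3.20 times as wide in Lgr5+ as in Lgr6+ progenitors, so a value of 0 means less in Lgr5+ progenitors. None of 16 genes that every cell uses was listed at 0 in either population. Neither sorting gene was called higher in the population sorted for it. The paper describes Lgr6+ cells as a part of the Lgr5+ progenitors, and the data hold no EGFP-negative cells, so these values do not measure the sort. *Lgr6* had an FPKM of 2.06 in Lgr5+ and 2.90 in Lgr6+ progenitors and *Lgr5* had 9.65 and 24.99, which was higher in Lgr6+ progenitors, with a log2 change of 1.29. All 10 SC markers examined were above an FPKM of 1 in both populations, among them *Sox2*, and so were all 8 HC markers.

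Of the 48 genes, 32 were kept, 16 stayed below an FPKM of 1 in both populations, and 4 of these 16 were listed at 0 in both. Of the 32 kept genes, 20 were higher in 1 of the populations, beside 51.8% of all kept genes. Of the 32, 12 were higher in Lgr6+ progenitors, which is 37.5% against 28.5% of all kept genes. In Lgr5+ progenitors 8 were higher, which is 25% against 23.3% of all kept genes. At 2-fold, 11 genes were called (beside 29.9% of all kept genes), 7 of them higher in Lgr6+ progenitors (against 18.2%) and 4 in Lgr5+ progenitors (against 11.7%). These shares lie near those of all genes. Among the 22 genes that reached FPKM 5 in either population, 8 were higher in Lgr6+ progenitors (36.4%, against 24.1% of all such genes). In Lgr5+ progenitors 6 were higher (27.3%, against 24.1%). The order turned only where both populations had to reach FPKM 1. Of the 9 genes that were kept through 1 population only, 7 were higher in Lgr6+ progenitors and 1 in Lgr5+ progenitors. Among the 23 genes that reached FPKM 1 in each population, 5 were higher in Lgr6+ progenitors (21.7%, against 21.4% of all such genes) and 7 in Lgr5+ progenitors (30.4%, against 22.5%). The median log2 change was 0.35 over the 32 genes and -0.23 over the 23. The summed FPKM of the 48 genes was 538 in Lgr5+ and 527 in Lgr6+ progenitors. Over all genes the sums were 754163 and 627932, so the 48 genes held 0.0713% in Lgr5+ and 0.0839% in Lgr6+ progenitors. The integrin symbols summed to less in Lgr6+ progenitors, and the 9 genes that are neither integrins nor laminins summed to more, 232 in Lgr5+ and 302 in Lgr6+ progenitors, of which *Tnc* was the largest. From bulk values, fewer cells of a type and less RNA per cell cannot be told apart.

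Of the 3 abundant integrin beta subunits, Lgr5+ progenitors had more of 2 and Lgr6+ progenitors had more of 1. *Itgb6*, whose product pairs with the alpha v subunit on epithelial cells and activates latent TGF-beta, had an FPKM of 35.8 in Lgr5+ and 7.14 in Lgr6+ progenitors. It lies on chromosome 2 from 60598292 to 60722603 (GRCm38, as are all positions here), and its log2 change of -2.18 was the lowest of the 32 kept genes. *Itgb5*, the vitronectin receptor subunit that also pairs with alpha v, had an FPKM of 53.2 in Lgr5+ and 19.3 in Lgr6+ progenitors. Its log2 change was -1.41, and it lies on chromosome 16 from 33829665 to 33949338. *Itgb1*, the partner of most alpha subunits, went the other way, with an FPKM of 20.8 in Lgr5+ and 32.3 in Lgr6+ progenitors and a log2 change of 0.61. That is just past the 1.5-fold limit of 0.585. *Itgb4*, the hemidesmosome subunit that pairs with alpha 6, had nearly the same FPKM in both, 3.28 and 3.14.

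The make-up of the beta subunits thus differed between the populations, and a share within a population does not change when its FPKM values are all scaled by 1 factor. *Itgb1* made up 18.3% of the summed FPKM of the beta subunits in Lgr5+ progenitors and 49.1% in Lgr6+ progenitors. *Itgb5* and *Itgb6* together made up 78.4% in Lgr5+ and 40.3% in Lgr6+ progenitors. The FPKM of *Itgb6* was 1.72 times that of *Itgb1* in Lgr5+ progenitors and 0.221 times in Lgr6+ progenitors. From high to low, the order was *Itgb5*, *Itgb6*, *Itgb1* in Lgr5+ progenitors, whereas in Lgr6+ progenitors it was *Itgb1*, *Itgb5*, *Itgb6*.

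The remaining beta symbols were low. *Itgb8*, another alpha v partner, had an FPKM of 0.312 in Lgr5+ and 1.58 in Lgr6+ progenitors, with a log2 change of 0.97. It was kept through Lgr6+ progenitors only, so the filter set its direction. *Itgbl1*, which encodes a secreted protein with integrin-like repeats and not a receptor subunit, had 4.44 and 1.85, a log2 change of -0.93. *Itgb3*, the beta subunit of platelets and osteoclasts, *Itgb7*, which occurs on lymphocytes, and *Itgb2l* stayed below an FPKM of 1 in both populations. *Itgb2*, the beta subunit shared by leukocyte integrins, was listed at 0 in both.

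Among the 18 alpha subunits, 9 were kept, and 2 were higher in each population. That is 22.2% each, against 28.5% of all kept genes higher in Lgr6+ and 23.3% in Lgr5+ progenitors. *Itga8*, the alpha subunit of an RGD-binding receptor that pairs with beta 1 and is known from HC bundle development, was the most abundant in both. Its FPKM was 48.7 in Lgr5+ and 22.9 in Lgr6+ progenitors, with a log2 change of -1.06, on chromosome 2 from 12106660 to 12312315. *Itga8* held 50.9% of the summed alpha FPKM in Lgr5+ and 32.5% in Lgr6+ progenitors. Its interval overlaps that of *E030013I19Rik*, so some of its fragments could belong to that gene. *Itga4*, the alpha subunit of a fibronectin and VCAM1 receptor, was the other one higher in Lgr5+ progenitors. It had an FPKM of 1.38 and 0.530 and a log2 change of -0.64. *Itga4* was kept through Lgr5+ progenitors only, so the filter set its direction.

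The laminin-binding alpha subunits *Itga6* and *Itga3* were not called. *Itga6*, second in abundance in both populations, had an FPKM of 26.0 in Lgr5+ and 21.8 in Lgr6+ progenitors, and *Itga3* had 8.68 and 5.90. Both changes were under 1.5-fold, although that of *Itga3* passed it after quantile normalization (-0.61), and so was that of *Itgav*, the partner of beta 5 and beta 6, with 4.53 and 6.16. *Itga7*, the laminin receptor subunit of muscle, was at 0 in Lgr5+ progenitors, with an FPKM of 0.352 in Lgr6+ progenitors. *Itga9*, a tenascin-C receptor subunit, had 3.33 and 2.69.

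The 2 alpha subunits higher in Lgr6+ progenitors were *Itga5* and *Itga10*. *Itga5*, the fibronectin receptor subunit, had an FPKM of 0.496 in Lgr5+ and 3.08 in Lgr6+ progenitors, with a log2 change of 1.45. It was kept through Lgr6+ progenitors only, so the filter set its direction. *Itga10*, a collagen receptor subunit of cartilage, had 1.65 and 5.29, a log2 change of 1.25. The other collagen-binding subunits *Itga1*, *Itga2* and *Itga11* did not exceed 0.251 in either population. *Itga2b*, the platelet subunit, had 0.584 and 1.07. Of the leukocyte subunits, *Itgad*, *Itgae* and *Itgax* were listed at 0 in both populations, *Itgal* was at 0 in Lgr5+ progenitors, with an FPKM of 0.174 in Lgr6+ progenitors, and *Itgam* had 0.259 and 0.173.

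**Figure D1:**
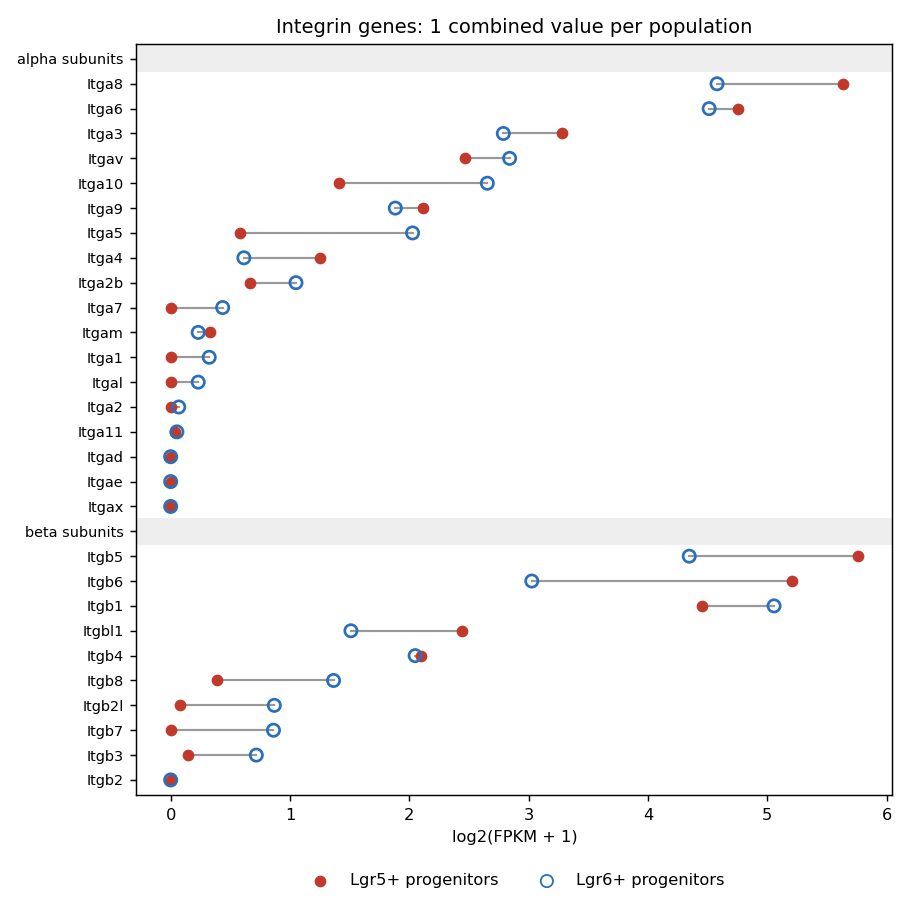
Level of each of the 28 integrin symbols as log2(FPKM + 1), with 1 combined value in Lgr5+ progenitors (filled red) and 1 in Lgr6+ progenitors (open blue), joined by a line and ordered by the higher value within each class; there are no error bars because replicates are not separated. *Itgb6* has the longest line, from 7.14 to 35.8 FPKM, and *Itgb1* is the only one of the 3 abundant beta subunits that is higher in Lgr6+ progenitors.

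For an integrin to form, both subunits must be made, so the lower of the 2 mRNA levels was taken for each of 24 known pairs. It reached FPKM 1 for 10 pairs in Lgr5+ and for 11 in Lgr6+ progenitors, and for 9 in both. FPKM 5 was reached for 3 pairs in Lgr5+ and for 7 in Lgr6+ progenitors. A subunit shared by several pairs counts in full for each. The highest were the pairs of beta 1 with alpha 8 and with alpha 6. For alpha 8 with beta 1 the lower level was 20.8 in Lgr5+ progenitors, set by *Itgb1*, and 22.9 in Lgr6+ progenitors, set by *Itga8*. For alpha 6 with beta 1 it was 20.8 and 21.8. For alpha v with beta 5 or with beta 6 the lower level was that of *Itgav* in both populations, 4.53 and 6.16. *Itgb6* was 7.92 times as high as *Itgav* in Lgr5+ progenitors and 1.16 times in Lgr6+ progenitors. The difference in *Itgb6* and *Itgb5* was thus not matched by one in *Itgav*. These are mRNA levels, and proteins were not measured.

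Laminin chains had close to the same sum in both populations, an FPKM of 91.9 in Lgr5+ and 86.7 in Lgr6+ progenitors, but differed chain by chain. Their sum in Lgr6+ progenitors was 0.944 times that in Lgr5+ progenitors, beside 0.833 times over all genes. *Lama5*, the alpha chain of most epithelial basement membranes, was the leading alpha chain, with 19.3 in Lgr5+ and 24.5 in Lgr6+ progenitors, with a log2 change of 0.33. *Lama4*, the alpha chain typical of capillaries and of mesenchyme, had an FPKM of 0.960 in Lgr5+ and 7.25 in Lgr6+ progenitors, with a log2 change of 2.07, on chromosome 10 from 38965515 to 39110188. *Lama4* held 4.05% of the summed alpha chain FPKM in Lgr5+ and 19.3% in Lgr6+ progenitors. It was kept through Lgr6+ progenitors only, so the filter set its direction. *Lama2*, known from muscle and Schwann cells, had 2.64 and 5.34, a log2 change of 0.80. *Lama1*, an embryonic chain, had 0.656 and 0.568, and *Lama3*, an epidermal chain, had 0.166 in Lgr5+ progenitors and was listed at 0 in Lgr6+ progenitors.

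Of the beta chains, *Lamb1* had an FPKM of 32.2 in Lgr5+ and 18.98 in Lgr6+ progenitors, with a log2 change of -0.73, and lies on chromosome 12 from 31265294 to 31329639. *Lamb2*, which takes its place in some mature basement membranes, had 17.1 and 15.3 and was under 1.5-fold apart. *Lamb3*, the beta chain of the epidermal laminin, had 0.203 and 0.0245.

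Of the gamma chains, *Lamc1*, the one in most laminins, had an FPKM of 6.47 in Lgr5+ and 10.1 in Lgr6+ progenitors, with a log2 change of 0.57 that lay just under 1.5-fold. *Lamc3* was at 0 in Lgr5+ progenitors, with an FPKM of 2.33 in Lgr6+ progenitors. It was kept through Lgr6+ progenitors only, so the filter set its direction.

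Taking the lowest chain of each of 14 known trimers, 9 trimers reached FPKM 1 in Lgr6+ progenitors, and 4 of these did so in Lgr5+ progenitors. The trimers that reached it in Lgr6+ progenitors alone are those with *Lama4* or *Lamc3*. A chain shared by several trimers counts in full for each. Laminin-511 and laminin-521 were the highest in both, at 6.47 in Lgr5+ and 10.1 in Lgr6+ progenitors, with *Lamc1* as the lowest chain. Laminin-411 and laminin-421 were at 0.960 and 7.25, set by *Lama4*. Laminin-213, laminin-423 and laminin-523 were at 0 and 2.33, set by *Lamc3*.

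**Figure D2:**
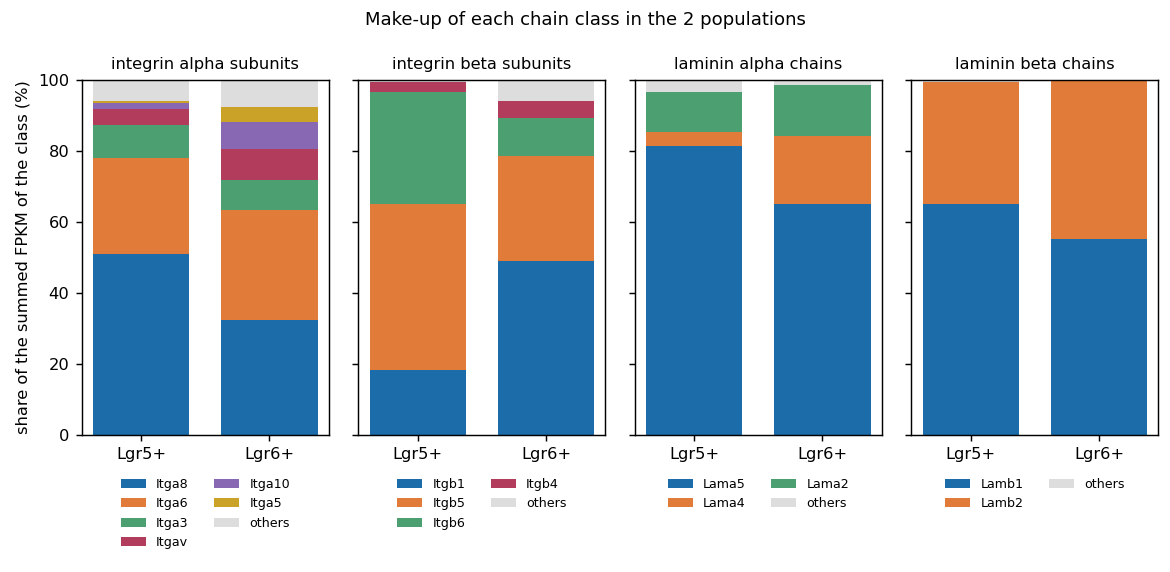
Share in percent of the summed FPKM of each class held by each gene in Lgr5+ and Lgr6+ progenitors, for integrin alpha and beta subunits (without *Itgbl1*) and laminin alpha and beta chains; genes under 4% in both populations are pooled as others. *Itgb1* goes from 18.3% to 49.1% of the beta subunits and *Lama4* from 4.05% to 19.3% of the laminin alpha chains.

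The nidogens, which link laminin to type IV collagen, were both higher in Lgr6+ progenitors. Both were kept through Lgr6+ progenitors only, so the filter set their direction. *Nid1* had an FPKM of 0.434 in Lgr5+ and 3.98 in Lgr6+ progenitors, with a log2 change of 1.79, and lies on chromosome 13 from 13437602 to 13512275. *Nid2* was at 0 in Lgr5+ progenitors, with an FPKM of 5.30 in Lgr6+ progenitors. It lies on chromosome 14 from 19751257 to 19823823 and overlaps *2700060E02Rik*. The proteoglycans did not share this direction. *Agrn*, which encodes agrin, had 58.9 and 35.1, a log2 change of -0.73, on chromosome 4 from 156165290 to 156197488. *Hspg2*, which encodes perlecan, had 2.03 and 1.58.

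All 3 adhesive glycoproteins had the higher value in Lgr6+ progenitors, as did 6942 of the 13436 kept genes. *Tnc*, which encodes tenascin-C and is known from the matrix under the organ of Corti, was the most abundant of the 48 genes, with an FPKM of 100.1 in Lgr5+ and 154 in Lgr6+ progenitors and a log2 change of 0.62. That is just past the 1.5-fold limit of 0.585. *Tnc* lies on chromosome 4 from 63959785 to 64047015. *Fn1*, which encodes fibronectin, had 5.84 and 8.18 and was under 1.5-fold apart. *Vtn*, which encodes vitronectin, lies on chromosome 11 from 78499120 to 78502325. It was at 0 in Lgr5+ progenitors, with an FPKM of 9.38 in Lgr6+ progenitors. Its log2 change of 3.38, the highest of the 32 kept genes, is set by the added 1. *Vtn* was kept through Lgr6+ progenitors only, so the filter set its direction.

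*Dag1*, which encodes dystroglycan, the laminin and agrin receptor outside the integrin family, had an FPKM of 29.1 in Lgr5+ and 21.8 in Lgr6+ progenitors and was under 1.5-fold apart. *Ilk*, which encodes the integrin-linked kinase, an adaptor on the beta 1 tail, had 35.6 and 62.4, a log2 change of 0.79. Its interval overlaps those of *Rrp8* and *Taf10*. Of the kept genes, the intervals of *Itga4*, *Itga5*, *Itgb4*, *Lama5* and *Hspg2* also overlap that of another gene. Without strand, fragments from shared exons could not be told apart, but whether exons overlap was not examined.

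**Figure D3:**
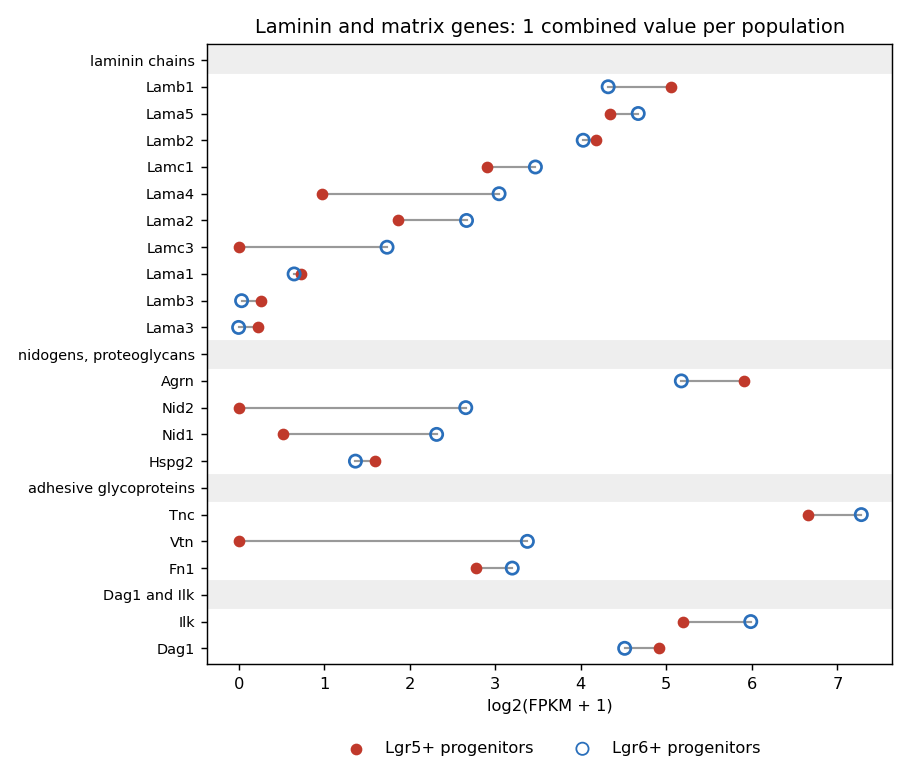
Level of 10 of the 11 laminin chains and of the 9 other genes as log2(FPKM + 1) in Lgr5+ progenitors (filled red) and Lgr6+ progenitors (open blue), 1 combined value each, without error bars. *Vtn*, *Nid2* and *Lamc3* start at 0 in Lgr5+ progenitors, and *Lama4* goes from 0.960 to 7.25 FPKM.

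Whether the 8 genes listed at 0 in Lgr5+ progenitors alone could have been missed there can be read from the steps of the low FPKM values. For 6717 genes with a single annotated transcript, FPKM was multiplied by the transcript length in kilobases less 0.2. In Lgr5+ progenitors 88 products fell on 0.128 while neighbouring intervals of equal width held 5, and in Lgr6+ progenitors 29 fell on 0.0401 while the neighbours held 3. If a step is 1 fragment, the Lgr6+ level of *Nid2* would have given 193 fragments in Lgr5+ progenitors, that of *Vtn* 113 and that of *Lamc3* 103. That of *Itga2* would have given fewer than 2, so a difference in *Itga2* was not detectable at this depth. The other 4 genes, *Itga1*, *Itga7*, *Itgal* and *Itgb7*, would have given from 6.79 to 15.7. The steps are those of combined values, amplified fragments are not independent molecules, and these figures cover counting alone.

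Genes of the same machinery that are not among the 48 were taken from lists. Of 25 kept linkers between integrins and actin, 5 were higher in Lgr6+ progenitors (20%, against 28.5% of all kept genes) and 4 in Lgr5+ progenitors (16%, against 23.3%), with a median log2 change of 0.18. *Vcl*, which encodes vinculin, had the highest change of the linkers, from an FPKM of 5.78 in Lgr5+ to 18.2 in Lgr6+ progenitors. *Itgb1bp1*, which encodes a protein that binds the beta 1 tail and restrains it, had the lowest, with 25.8 in Lgr5+ and 10.2 in Lgr6+ progenitors. *Actn4*, an actin crosslinker, was the most abundant, with 98.5 and 77.1. Of the linkers called higher in Lgr6+ progenitors, *Fermt3* was kept through Lgr6+ progenitors only. Of the hemidesmosome list *Col17a1*, *Krt5* and *Krt14* were listed at 0 in both populations. *Krt18*, a keratin of simple epithelia, had 264.7 in Lgr5+ and 49.6 in Lgr6+ progenitors, and *Dst*, which encodes a linker of hemidesmosomes and the cytoskeleton, had 7.04 and 16.6. Of 20 kept genes of the dystroglycan complex and its glycosylation, 4 were higher in Lgr6+ progenitors (20%, against 28.5%) and 3 in Lgr5+ progenitors (15%, against 23.3%), with a median log2 change of 0.03. The one with the highest mean was *Dtna*, which encodes a dystrobrevin, with 43.2 and 78.5. *Pomk*, which encodes a kinase of the sugar chain, had the highest change of that list, from 1.90 to 4.91. *Pomt1*, which starts the chain, had the lowest, with 5.04 and 0.835. It was kept through Lgr5+ progenitors only, so the filter set its direction.

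Of 25 kept other basement membrane components, 9 were higher in Lgr6+ progenitors (36%, against 28.5% of all kept genes) and 5 in Lgr5+ progenitors (20%, against 23.3%), with a median log2 change of 0.24. *Col4a2*, a chain of the type IV collagen network, had the highest change, from an FPKM of 3.39 in Lgr5+ to 36.3 in Lgr6+ progenitors. Its partner *Col4a1* had 6.82 and 31.8. *Gpc1*, a heparan sulfate proteoglycan of the cell surface, had the lowest change, with 120.6 in Lgr5+ and 44.3 in Lgr6+ progenitors. *Sparc*, a collagen-binding protein, was the most abundant, with 1078 and 854. Among 16 kept RGD and matricellular ligands 5 were higher in each population, with a median log2 change of -0.11. That is 31.2% each, against 28.5% of all kept genes higher in Lgr6+ and 23.3% in Lgr5+ progenitors. *Ctgf* had the lowest change of these, with 93.7 in Lgr5+ and 20.7 in Lgr6+ progenitors, and *Cyr61*, of the same family, was the most abundant with 502 and 144. *Icam2*, an adhesion molecule of endothelium and leukocytes, had the highest, from 0.270 to 9.33, and was kept through Lgr6+ progenitors only. Where both populations had to reach FPKM 1, 3 of 14 ligands were higher in Lgr6+ and 5 in Lgr5+ progenitors. Of 23 other basement membrane components 7 and 5 were then higher, beside 21.4% and 22.5% of all such genes.

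Markers of several other cell types were higher in Lgr6+ progenitors, as were some of the genes described here. The 10 endothelial markers summed to an FPKM of 34.5 in Lgr5+ and 178.6 in Lgr6+ progenitors, with 9 of 10 higher in Lgr6+ progenitors, *Kdr* at 0 in Lgr5+ progenitors and *Tie1* alone higher in Lgr5+ progenitors. *Pecam1*, *Kdr*, *Flt1* and *Tek* were kept through Lgr6+ progenitors only and *Tie1* through Lgr5+ progenitors only, so the filter set their direction. The other 5 reached FPKM 1 in both populations, and all 5 were higher in Lgr6+ progenitors. The highest of the 10 was *Egfl7*, with 15.2 and 74.5. The 12 microglia and macrophage markers summed to 25.4 and 303, all 10 kept ones were higher in Lgr6+ progenitors, and *Csf1r*, *Aif1*, *C1qb*, *C1qc*, *Tyrobp* and *Ptprc* were at 0 in Lgr5+ progenitors. Of the 10, 8 were kept through Lgr6+ progenitors only and so had to be higher there, and the other 2, *Cd68* and *Laptm5*, summed to 23.1 and 44.1. *Ptprc* had no more than 0.00814 in Lgr6+ progenitors either, beside *Itgb2* at 0. The 10 mesenchyme and fibrocyte markers summed to 335 and 618, with 5 higher in Lgr6+ and 1, *Lum*, in Lgr5+ progenitors. *Otos* alone went from 5.60 to 248.5, and without it the sums were 329.8 and 369.6. The 9 Schwann cell and glial markers summed to 520 and 1638, 5 of 7 kept ones were higher in Lgr6+ progenitors and *Foxd3* was at 0 there. Of these 5, *Pmp22* and *Gfra3* were kept through Lgr6+ progenitors only. The part of these cells in *Lama2*, *Lama4*, *Lamc3*, *Nid1*, *Nid2*, *Vtn*, *Itga5* and *Itga10* was not tested.

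Further marker lists differed in direction. Of 8 pericyte and smooth muscle markers 3 were kept, with 2 higher in Lgr6+ progenitors, sums of 11.3 and 17.8, *Rgs5*, *Cspg4* and *Kcnj8* at 0 in Lgr5+ progenitors and *Acta2* at 0 in both. Of 7 platelet markers, *Ppbp*, *Gp9* and *Gp6* were among those at 0 in both populations, and the sums were 7.86 and 28.6. *Pf4* was the highest in both, with 3.81 and 27.8, and *Gp1bb* was higher in Lgr5+ progenitors. Of 6 kept erythroid markers 4 were higher in Lgr5+ progenitors, with sums of 946 and 413. The 8 HC markers summed to 735 and 1076, with 6 higher in Lgr6+ progenitors. The 10 SC markers summed to 3906 and 3762, with 4 higher in Lgr5+ and 1, *Lgr5*, in Lgr6+ progenitors. Most of these sums was *S100a1*, and without it they were 947 and 586. The 7 neuronal markers summed to 113 and 127, with 2 higher in each population and *Prph* at 0 in Lgr5+ progenitors. Of the called markers of these lists, *Rgs5* and *Prph* were kept through Lgr6+ progenitors only. *Gp1bb*, *Hba-a1*, *Hba-a2* and *Tubb3* were kept through Lgr5+ progenitors only, so the filter set the direction of each. The part of these cells in *Itgb5*, *Itgb6*, *Itga8* and *Agrn* was not tested.

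**Figure D4:**
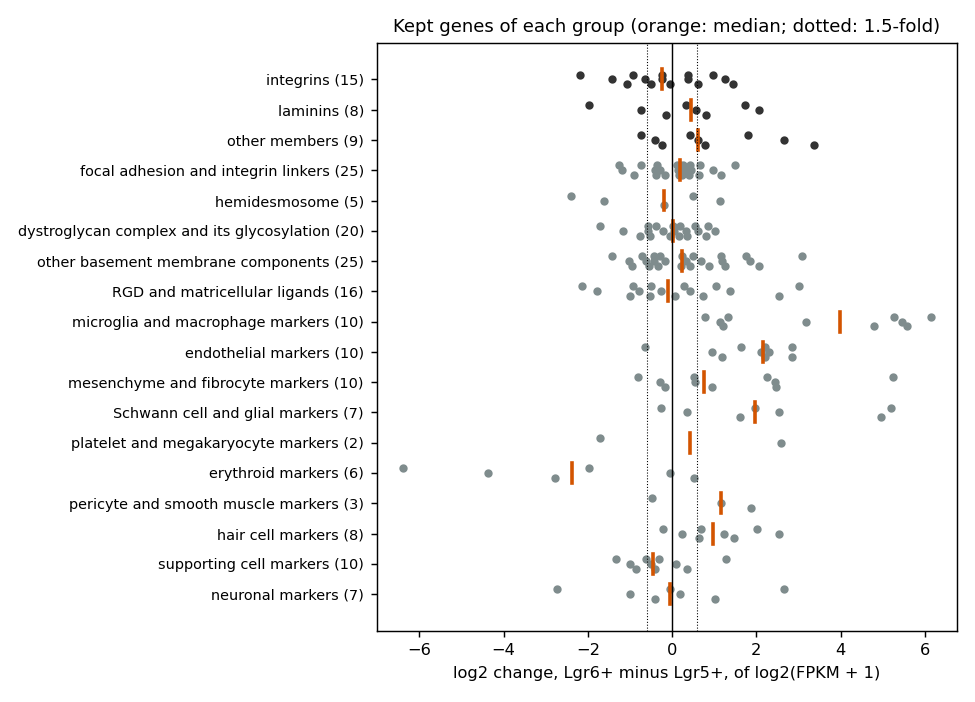
Log2 change (Lgr6+ minus Lgr5+ progenitors, on log2(FPKM + 1)) of every kept gene of the integrins, laminins and other genes described here (black) and of the pathway and marker lists (grey); orange bars are medians, dotted lines mark 1.5-fold and the number of kept genes is in brackets. The integrins, laminins and other members lie on both sides of 0. The macrophage markers lie wholly above it, and 8 of them were kept through Lgr6+ progenitors only.

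The 150 bases before the annotated start are shown for 4 of the genes with wide differences, 2 of each direction, that have an entry in the promoter sequences of RefSeq (GRCm38.p6), which hold 32 of the 48 genes. *Lama4*, *Lamc3* and *Nid2* have no entry. Both strands were searched for TATAAA, for GGGCGG and for TGANTCA, and matches are in capitals. Of 32851 windows of the same length, 7.57% held TATAAA, 28.6% GGGCGG and 4.24% TGANTCA, with a median of 4 CG dinucleotides. The windows of *Itgb6* (chr2:60722604-60722753, minus strand) and *Itgb5* (chr16:33829515-33829664, plus strand) come from genes higher in Lgr5+ progenitors, and those of *Nid1* (chr13:13437452-13437601, plus strand) and *Vtn* (chr11:78498970-78499119, plus strand) from genes higher in Lgr6+ progenitors.
Itgb6: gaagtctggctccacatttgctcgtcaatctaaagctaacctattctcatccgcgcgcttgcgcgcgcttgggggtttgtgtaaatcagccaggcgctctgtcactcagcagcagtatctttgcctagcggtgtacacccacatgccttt
Itgb5: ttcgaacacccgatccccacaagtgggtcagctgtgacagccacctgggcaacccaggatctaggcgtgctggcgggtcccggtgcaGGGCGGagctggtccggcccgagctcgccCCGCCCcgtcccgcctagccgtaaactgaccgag
Nid1: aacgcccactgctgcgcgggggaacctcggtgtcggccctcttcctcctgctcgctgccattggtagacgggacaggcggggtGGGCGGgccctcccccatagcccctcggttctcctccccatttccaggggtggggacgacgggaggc
Vtn: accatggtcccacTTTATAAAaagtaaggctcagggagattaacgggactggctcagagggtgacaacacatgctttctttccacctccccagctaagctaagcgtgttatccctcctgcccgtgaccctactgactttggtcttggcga
None of the motifs was in the window of *Itgb6*, which held 9 CG dinucleotides. *Itgb5* held 2 matches to GGGCGG and 14 CG dinucleotides, and *Nid1* held 1 match and 12. *Vtn*, with 4 CG dinucleotides, held 2 overlapping matches to TATAAA, 1 on each strand. GGGCGG was thus found in 1 gene of each direction and TATAAA in *Vtn* alone.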

How the data were processed

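RNA-Seq of Lgr5+ and Lgr6+ progenitors, 2 labelled samples each, was analysed at the level of the deposited gene table. The authors made libraries with a low-input cDNA kit that does not mark strand, and used Trimmomatic for trimming, TopHat for mapping and RefGene for annotation (no versions given in the sources used here). Each FPKM value was calculated by the authors with Cufflinks and deposited as 1 combined value per population. The methods name mm9 and the processing notes mm10. The intervals of all 48 members overlapped their gene in GRCm38, and those of 6 did in NCBIM37 (mm9), so positions were read as GRCm38, counted from 1. A further 3 columns hold the authors' own comparison (a log2 fold change, a p-value and a q-value) and were not used.

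No test was possible with 1 value per population, and the limma fit foreseen for values per sample was not run. Genes were kept where either population had FPKM 1 or more, and log2(FPKM + 1) was compared at 1.5-fold. The study used the same fold limit, but it also required expression above background and a significance limit, so its calls are not the same. The members, lists and motifs were chosen with earlier results of these data known. Genes were named by a rule: members that reached FPKM 5 in either population with their values, the others by group, and of each list the extremes. A few genes, 1 member among them, enter the counts and sums but are not reported here by name. *Col4a1*, *Cyr61*, *Dst* and single markers were named after their values were seen. Depth in counts is not known beyond the steps of low FPKM values, which were computed with transcript lengths of the NCBIM37 annotation. Alternatives were other pseudocounts, filters, scalings and a 2-fold limit. Sums without *Otos* or *S100a1* and the stricter filter on macrophage markers were added after the data were seen. Python 3.11.15, numpy 2.4.6, pandas 2.3.3 and matplotlib 3.10.9 were used, and the calculation was tested on simulated data.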

Additional observations from a re-analysis of the deposited data

How the results depend on the processing

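All 20 members called at 1.5-fold kept their direction under each of the alternatives that could be computed for them. Only the scalings could have reversed a direction, because the filters and the 2-fold limit leave the log2 change as it is and another pseudocount cannot turn its sign. In all computed alternatives 11 stayed past the limit, among them *Itgb6*, *Itgb5*, *Itga8*, *Lama4*, *Nid1*, *Nid2* and *Vtn*. Of the 11, *Itga5*, *Lama4*, *Lamc3*, *Nid1*, *Nid2* and *Vtn* were kept through Lgr6+ progenitors only. The filter on both populations removes them, so they were not put to it. The number higher in Lgr6+ progenitors moved from 12 to 5 when both populations had to reach FPKM 1 and to 7 at 2-fold, and the number higher in Lgr5+ progenitors moved from 8 to 5 with equal sums of FPKM and to 4 at 2-fold. With FPKM 5 or more in either population the numbers were 8 and 6 and the median log2 change was 0.35. Over the 32 kept members the median of 0.35 became 0.39 with a pseudocount of 0.1 and 0.058 after quantile normalization. It was 0.35 after upper quartile scaling and 0.54 with equal sums. Equal sums moved the median of all kept genes from 0.03 to 0.27 and their calls to 36.9% higher in Lgr6+ and 16.3% higher in Lgr5+ progenitors. Other settings changed which members were counted. As a ratio without a pseudocount, which leaves out *Lamc3*, *Nid2* and *Vtn*, the median was -0.065 over 29 members. It was 0.28 over 44 members without a filter and -0.23 over 23 where both had to reach FPKM 1. Under equal sums *Agrn*, *Lamb1* and *Itga4* lost their calls and *Lamc1*, *Fn1* and *Itgav* gained one toward Lgr6+ progenitors. After quantile normalization *Itgb8* and *Lama2* lost theirs and *Itga3* gained one toward Lgr5+ progenitors, and *Lamc1* and *Itga2b* gained one toward Lgr6+ progenitors with a pseudocount of 0.1 and with none. At 2-fold, *Agrn*, *Lamb1*, *Itga4*, *Itgb8*, *Lama2*, *Ilk*, *Itgb1*, *Itgbl1* and *Tnc* were not called. No paired analysis was possible because the table holds 1 combined value per population, and for the same reason no replicate could be left out. Low values in Lgr5+ progenitors are limited by their wider steps.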
